A study of Mus musculus with 18 samples.

Results

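Mt1, Mt2, Slc30a1, Slc30a10 and Mtf1 are 5 genes that bind, export or sense zinc and related metals in the liver. They were taken by symbol from the deposited count table. All 5 were present among the 24394 gene symbols, and all 5 were among the 11218 genes with enough counts to test. The table holds 18 mouse livers profiled by 3′ end sequencing of polyadenylated RNA (QuantSeq FWD), which gives about 1 read per transcript whatever its length. The 3 groups hold 6 livers each. The control WT livers came from wild-type control mice. The tumour-bearing WT livers came from wild-type mice with the pancreatic ductal adenocarcinoma line PDA.69, which the labels describe as derived from the KPC mouse model and low in T cells. The tumour-bearing Alb-Cre+/+;Stat3f/f livers came from tumour-bearing mice in which Cre, driven by the albumin promoter of hepatocytes, recombines a floxed Stat3 (called Stat3-deleted below). There was no group of Stat3-deleted mice without a tumour, so the change with tumour within that genotype cannot be measured. The labels list PDA.69 for the control livers too. No source used here gives the site or duration of the tumour, or the sex and age of the mice. The p-values of group differences judge each difference against the spread between these livers.

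As background, metallothioneins are small cysteine-rich proteins that hold zinc and copper ions, and in the liver they are induced by zinc, by glucocorticoids and during inflammation. Mtf1 encodes the zinc finger transcription factor that senses free zinc and binds metal response elements (MREs) in the promoters of Mt1, Mt2 and Slc30a1. Slc30a1 (ZnT1) exports zinc across the plasma membrane, while Slc30a10 (ZnT10) belongs to the same family but is known in the liver mainly as a manganese exporter into bile. On the import side, Slc39a14 (ZIP14) carries zinc and manganese into hepatocytes and belongs to the hepatic acute phase response.

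Mt1 and Mt2 are neighbours on chromosome 8 of GRCm38, separated by 5513 bases, with Mt2 (ENSMUSG00000031762) at 94172664 to 94173568 and Mt1 (ENSMUSG00000031765) at 94179082 to 94180327, both on the plus strand. Slc30a1 (ENSMUSG00000037434) lies on chromosome 1 at 191906767 to 191913247, Slc30a10 (ENSMUSG00000026614) on chromosome 1 at 185454848 to 185468762, and Mtf1 (ENSMUSG00000028890) on chromosome 4 at 124802104 to 124849800. The coding sequences of both metallothioneins are printed because the cysteine codons carry the metal binding and because the pair must be told apart by the reads. They come from GENCODE vM21, and capitals mark the cysteine codons TGC and TGT.
Mt1: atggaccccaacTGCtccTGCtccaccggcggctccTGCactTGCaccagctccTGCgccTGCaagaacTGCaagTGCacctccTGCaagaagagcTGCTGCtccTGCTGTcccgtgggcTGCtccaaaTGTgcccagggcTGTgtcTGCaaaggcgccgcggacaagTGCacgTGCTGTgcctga
Mt2: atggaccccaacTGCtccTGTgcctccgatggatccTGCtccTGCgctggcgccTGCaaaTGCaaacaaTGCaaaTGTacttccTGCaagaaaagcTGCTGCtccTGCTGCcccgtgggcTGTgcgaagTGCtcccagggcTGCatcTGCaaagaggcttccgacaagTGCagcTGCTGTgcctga
Each coding sequence has 186 bases and 20 cysteine codons. The pair was identical at 148 of 186 positions (79.6%). Past the stop codon (134 bases in Mt1 and 141 in Mt2) the identity was 57.3% and the longest shared run was 10 bases, and over the last 200 bases of the transcripts they were 61.5% and 12 bases. Where the reads of these libraries start was not measured. No source used here says how the authors treated reads that fit both genes.

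The promoters are shown because 4 of the genes share the MRE core. RefSeq start sites on GRCm38.p6 were matched for 5 of 5 genes. Capitals mark the MRE core TGCACNC or TGCGCNC on either strand, where matches that overlap are printed as 1 run. Each sequence is on the plus strand and ends before the first annotated transcript start. The Mt1 stretch is chr8:94178839-94179081, the Mt2 stretch chr8:94172368-94172617, the Slc30a1 stretch chr1:191906531-191906766 and the Slc30a10 stretch chr1:185454598-185454847.
Mt1 promoter: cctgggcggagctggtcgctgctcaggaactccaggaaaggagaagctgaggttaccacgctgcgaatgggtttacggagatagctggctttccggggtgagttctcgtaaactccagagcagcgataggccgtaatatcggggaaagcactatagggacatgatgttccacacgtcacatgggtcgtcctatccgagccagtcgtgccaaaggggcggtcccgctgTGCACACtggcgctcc
Mt2 promoter: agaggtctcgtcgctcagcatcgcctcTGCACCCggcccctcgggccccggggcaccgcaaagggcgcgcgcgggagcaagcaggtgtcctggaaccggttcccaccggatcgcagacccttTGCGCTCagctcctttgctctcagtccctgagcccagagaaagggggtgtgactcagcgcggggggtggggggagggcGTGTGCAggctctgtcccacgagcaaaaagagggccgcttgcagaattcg
Slc30a1 promoter: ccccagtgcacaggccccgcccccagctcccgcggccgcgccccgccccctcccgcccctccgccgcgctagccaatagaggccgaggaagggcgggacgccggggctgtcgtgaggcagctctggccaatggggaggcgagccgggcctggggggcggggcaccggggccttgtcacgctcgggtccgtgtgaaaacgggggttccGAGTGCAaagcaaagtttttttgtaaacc
Slc30a10 promoter: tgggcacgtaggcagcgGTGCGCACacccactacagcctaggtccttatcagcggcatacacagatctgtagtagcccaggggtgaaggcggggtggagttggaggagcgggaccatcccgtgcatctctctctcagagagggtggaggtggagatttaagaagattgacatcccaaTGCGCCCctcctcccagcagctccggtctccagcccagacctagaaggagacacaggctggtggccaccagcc
In the full window of 300 bases, from 250 before to 50 after the RefSeq start, the Mt2 promoter held 4 places with the core and the Mt1 promoter held 3. The Slc30a1 and Slc30a10 windows held 2 each, and the Mtf1 window held 0. Among 32544 RefSeq promoter windows of the same length, 25.9% held at least 1 place, 6.19% at least 2, 1.32% at least 3 and 0.298% at least 4. The palindromic STAT motif TTCNNNGAA, present in 8.33% of windows, had 0 matches in the 5 windows, which says only that these letters are not there. GENCODE lists further starts for Mt1, Mt2, Slc30a1 and Mtf1, and only the window at the RefSeq start was searched. Later starts lie 122 and 152 bases after the RefSeq start for Mt1 and 46 and 242 bases after it for Mt2. The window ends 50 bases after the RefSeq start, so the counts of places do not compare the whole promoters of the 2 genes.

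Library totals ran from 5212265 to 9545442 counts. Stat3, read at its 3′ end and therefore no check of the floxed exons themselves, was 0.93 higher on the log2 scale (SE 0.14, adjusted p 0.000302, edgeR) in tumour-bearing WT than in control livers and 0.85 lower in Stat3-deleted than in tumour-bearing WT livers (log2 change -0.85, SE 0.14, adjusted p 0.00043). Stat3-deleted and control livers differed by 0.08 (SE 0.14, adjusted p 0.803), with means of 118 and 112 CPM, so by this readout the livers labelled with the floxed allele held Stat3 reads near the control level. The acute phase gene Saa1, the subject of the study's title, had log2 changes of 6.21 (SE 0.73) and -8.73 (SE 0.82) in these comparisons. All 10 hepatocyte markers were in the table. Their summed levels in CPM (read counts relative to the TMM-scaled library size) were 69941 to 96611 in control livers. The sums were 72496 to 131471 with tumour and 110367 to 124278 with Stat3 deleted, and they hold mainly Alb, Apoa1, Apoa2 and Ttr. Ass1 had only 2.78 to 10.2 CPM in control livers. Apob averaged 1452 CPM in control livers, 941 with tumour and 611 with Stat3 deleted, so not every marker moved with the sums. The labels' sample numbers form a lower run (replicates 1 to 3) and a higher run (replicates 4 to 6) in each WT group, while the Stat3-deleted livers have numbers of their own, so that number run and genotype cannot be told apart. Scaling to library totals in place of TMM factors moved the median change of all genes from 0.0038 to -0.19 in the tumour comparison and the share of higher genes among those called from 78.2% to 39.4%. The same switch moved that share from 47.2% to 61.1% for Stat3-deleted against tumour-bearing WT livers and from 45.2% to 27.2% for Stat3-deleted against control livers.

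Both metallothioneins rose in the livers of tumour-bearing WT mice, and they were the only members called in this comparison. Of all tested genes 2.25% were called at an adjusted p under 0.05 in either direction (1.76% higher and 0.49% lower). Of the 5 members 2 were higher and 0 were lower by edgeR, DESeq2 and limma voom (3 and 0 at an unadjusted p under 0.05). The members were chosen with earlier results of these data known, and the 2 called are neighbours that tracked each other. Such counts of members are therefore a description only, here and below. The percentages over all genes are those of edgeR after adjustment, and none was computed for counts at an unadjusted p. Mt1 level in control WT livers had a lowest value of 41.6, a median of 124 and a highest of 1010 CPM, and in tumour-bearing WT livers 972, 2516 and 11917 CPM. Its log2 change was 3.96 (SE 0.78, 95% interval 2.34 to 5.58, adjusted p 0.0061), a 15.5-fold higher level, with 6 of 6 tumour-bearing WT livers above the control mean. The groups overlapped by 1 pair, since control replicate 2 (1010 CPM) lay above tumour-bearing WT replicate 5 (972 CPM).

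Mt2 level ran from 13.3 through a median of 60.1 to 472 CPM in control WT livers and from 526 through 1458 to 8160 CPM in tumour-bearing WT livers. Here the groups did not overlap. The log2 change of Mt2 was 4.27 (SE 0.82, 95% interval 2.58 to 5.97, adjusted p 0.00469). The highest liver for both genes was tumour-bearing WT replicate 6, in which reads of Mt1 and Mt2 together made up 1.504% of all counts, against 0.00585 to 0.161% in the control livers. With the reads of the pair summed before the fit, so that reads assigned to the wrong one of them could not matter, the log2 change was 4.07 (SE 0.79, adjusted p 0.00524).

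The estimated metallothionein difference was larger in the higher number run, but the difference between runs did not pass its test. In the lower run alone, 3 livers against 3, Mt1 had a log2 difference of 2.20 (adjusted p 0.419) and Mt2 of 2.89 (adjusted p 0.149). In the higher run alone, the differences were 6.08 for Mt1 (adjusted p 0.0223) and 6.44 for Mt2 (adjusted p 0.0335). With the run as a block in the WT groups, Mt1 had 4.15 (adjusted p 0.0493) and Mt2 4.66 (adjusted p 0.027). The difference between runs was tested by an interaction term in edgeR, added after the values were seen. It was 3.89 for Mt1 (SE 1.30, p 0.00900, adjusted p 0.658) and 3.56 for Mt2 (SE 1.38, p 0.0210, adjusted p 0.658). Neither passed after adjustment, and 0 of 10805 tested genes did.

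**Figure D1:**
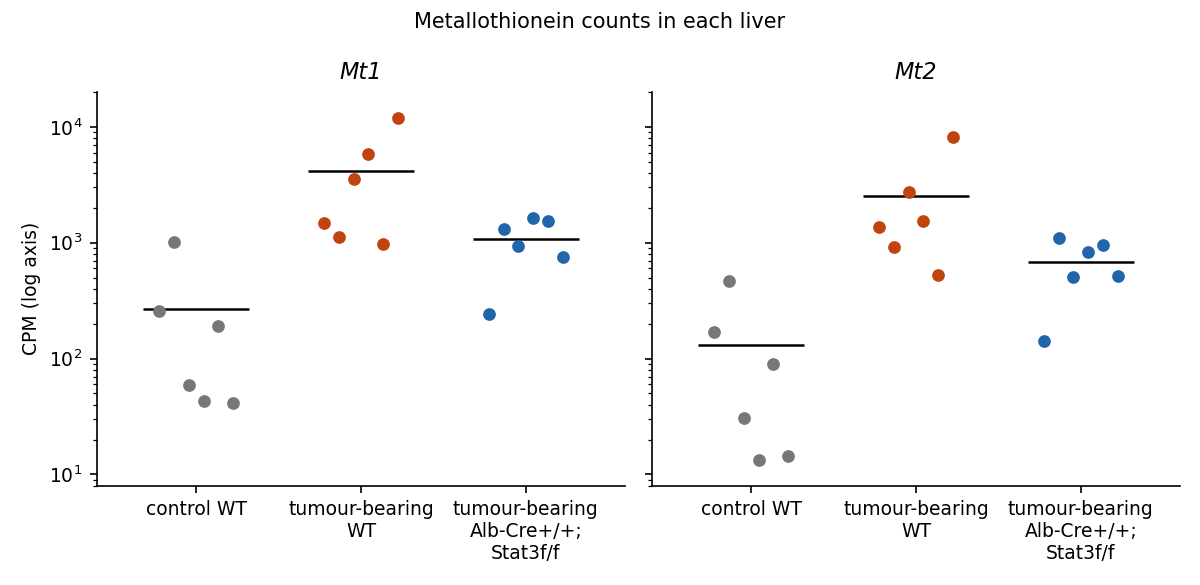
Level of Mt1 (left) and Mt2 (right) in CPM on a log axis for each of the 18 livers, in replicate order within each group, with a line at the group mean. All 6 tumour-bearing WT livers lie at or above 526 CPM for Mt2 and all 6 control livers at or below 472 CPM, while the Stat3-deleted livers span 143 to 1092 CPM.

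The Stat3-deleted livers sat between the other groups for both metallothioneins, and neither gap passed by edgeR. By limma voom the gap to control passed for both genes (log2 difference 2.62, adjusted p 0.0107 for Mt1 and 3.10, 0.006 for Mt2), and by DESeq2 it passed for Mt2 (2.37, 0.0457). In the comparison of Stat3-deleted with tumour-bearing WT livers, 6.12% of genes were called (2.89% higher and 3.23% lower), and of the 5 members 0 were higher and 2 were lower, both of them exporters. The counts were the same by DESeq2 and by limma voom, and at an unadjusted p under 0.05 they were 0 and 4. Mt1 level in Stat3-deleted livers had a lowest value of 244, a median of 1127 and a highest of 1622 CPM. The log2 difference of Mt1 from tumour-bearing WT livers was -1.96 (SE 0.72, 95% interval -3.45 to -0.47, adjusted p 0.118), and that from control livers was 2.00 (SE 0.72, 95% interval 0.51 to 3.49, adjusted p 0.11). Replicates 1 (244 CPM), 3 (938 CPM) and 6 (746 CPM) lay within the control range, so that 3 of 6 livers did.

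Mt2 level in Stat3-deleted livers ran from 143 through 675 to 1092 CPM. Its log2 difference from tumour-bearing WT livers was -1.91 (SE 0.74, adjusted p 0.144), which was -1.07 without tumour-bearing WT replicate 6 (-1.28 for Mt1), and that from control livers was 2.36 (SE 0.75, adjusted p 0.0712). The Stat3-deleted livers overlapped both other groups for Mt1 and for Mt2. Leaving out control replicate 2 changed the second of these results: the difference from control passed for Mt1 (log2 difference 3.16, adjusted p 0.0106) and for Mt2 (3.40, adjusted p 0.0121). The Mt2 difference from control also passed without tumour-bearing WT replicate 6 (2.36, adjusted p 0.0376). Saa1, by contrast, was lower in Stat3-deleted than in control livers (log2 change -2.52, SE 0.62, adjusted p 0.0235, though the adjusted p reached 0.0611 when single livers were left out).

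Mt1 and Mt2 were among the most variable genes between livers of 1 group. The SD of log2 CPM of Mt1 was 1.82 in control livers, 1.45 with tumour and 1.02 with Stat3 deleted. Over 6565 genes that averaged 10 CPM or more, the median SD was 0.28, 0.33 and 0.25. Only 0.244%, 0.274% and 0.457% of those genes had a larger SD. Mt2 had SDs of 2.05, 1.37 and 1.08. The SD of Slc30a10 was 0.36, 0.61 and 0.10, and in Stat3-deleted livers 96.3% of genes had a larger one.

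Markers of several cell types changed in the same comparisons. Of 9 neutrophil markers 8 were in the table and 3 had enough counts to test (S100a8, S100a9 and Retnlg). All 3 were higher in tumour-bearing WT than in control livers and lower in Stat3-deleted than in tumour-bearing WT livers. The summed level of the 8 markers was 21.1 to 51.3 CPM in control livers, 69.5 to 342 with tumour and 35.7 to 103 with Stat3 deleted. Of 10 Kupffer cell markers 2 were higher with tumour by edgeR, 3 by DESeq2, 2 by limma voom and 7 at an unadjusted p under 0.05. In Stat3-deleted against control livers 3, 5, 6 and 7 were higher in the same order. Over all tested genes edgeR called 1.76% and 2.19% higher in these comparisons. DESeq2 called 462 of all genes with tumour, and limma voom 1318 in Stat3-deleted against control livers, in either direction. No share over all genes was computed for the unadjusted counts. Between Stat3-deleted and tumour-bearing WT livers 0 of the 10 Kupffer cell markers were called by any of these criteria. The sums of the 10 markers overlapped, at 438 to 1101, 774 to 1855 and 762 to 1967 CPM in control, tumour-bearing WT and Stat3-deleted livers. Of 3 tested B and plasma cell markers, Jchain (log2 change -2.87, adjusted p 0.00158) and Mzb1 (-1.82, adjusted p 0.0257) were lower in Stat3-deleted than in tumour-bearing WT livers. By edgeR 2 of the 3 were also lower in Stat3-deleted than in control livers, and 0 were called with tumour. The 5 such markers in the table summed to 4.66 to 48.2 CPM in control livers, 10.1 to 43.2 CPM in tumour-bearing WT livers and 3.26 to 8.73 CPM with Stat3 deleted. Of 10 hepatocyte markers 1, Ttr, was higher in that comparison by edgeR (0.68, adjusted p 0.0154) and 0 were lower. The counts were 2 and 0 by DESeq2, 2 and 1 by limma voom and 4 and 1 at an unadjusted p under 0.05. Over all tested genes 2.89% were higher and 3.23% lower by edgeR. Ductal markers, which the tumour line could share, summed to 31.0 to 57.2, 44.2 to 149 and 28.6 to 44.7 CPM in control, tumour-bearing WT and Stat3-deleted livers. Sox9 was the largest part, with means of 25.4, 62.7 and 24.6 CPM, while Epcam had 1.12, 0.918 and 0.920 CPM. Of 7 such markers 4 were tested. By edgeR 1, Sox9, was higher with tumour and 2 were lower in Stat3-deleted than in tumour-bearing WT livers. Spp1, with means of 7.44, 18.1 and 4.34 CPM, is also a macrophage marker. The part of these cell types in the results on the members was not tested, and in bulk tissue fewer cells of a type and less RNA per cell cannot be told apart.

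Slc30a10, the exporter of manganese, was lower in Stat3-deleted livers than in both other groups. Its level was 47.2, 66.8 and 92.0 CPM (lowest, median and highest) in control WT livers, 30.3, 74.8 and 102 CPM in tumour-bearing WT livers and 37.0, 40.8 and 45.0 CPM in Stat3-deleted livers. The log2 change was -0.83 (SE 0.21, 95% interval -1.25 to -0.40, adjusted p 0.0157) from tumour-bearing WT livers, with 6 of 6 Stat3-deleted livers below the tumour-bearing WT mean. These groups overlapped only through tumour-bearing WT replicate 6, at 30.3 CPM, while the other 5 livers of its group lay at 65.3 CPM or above. Leaving out any 1 of the 18 livers kept the call, with adjusted p from 0.000304 to 0.0422.

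Against control livers the log2 change of Slc30a10 was -0.74 (SE 0.21, 95% interval -1.16 to -0.31, adjusted p 0.0394), and the groups did not overlap. In this comparison 4.85% of all tested genes were called (2.19% higher and 2.66% lower), and of the 5 members 0 were higher and 1, Slc30a10, was lower. At an unadjusted p under 0.05 the counts were 2 and 1, by DESeq2 1 and 1 and by limma voom 2 and 1, the higher ones being metallothioneins. The call rested on the full set, since leaving out 1 liver raised the adjusted p past the threshold in 9 of 18 cases, up to 0.0959. Those livers were control replicates 1, 3, 5 and 6 and Stat3-deleted replicates 1, 2, 3, 5 and 6, and the log2 change stayed between -0.84 and -0.63. Between tumour-bearing WT and control livers Slc30a10 had a log2 difference of 0.09 (SE 0.20, 95% interval -0.33 to 0.51, adjusted p 0.876), whose sign turned to -0.06 with library totals.

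Slc30a1, the zinc exporter, was called lower in Stat3-deleted than in tumour-bearing WT livers, and its difference with tumour did not pass the test. Its level was 19.9, 37.7 and 43.9 CPM in control WT livers, 36.4, 47.4 and 84.3 CPM in tumour-bearing WT livers and 25.8, 32.4 and 38.7 CPM in Stat3-deleted livers. The log2 difference of tumour-bearing WT from control livers was 0.60 (SE 0.20, 95% interval 0.19 to 1.01, adjusted p 0.123), with 6 of 6 livers above the control mean. From tumour-bearing WT to Stat3-deleted livers its log2 change was -0.66 (SE 0.20, 95% interval -1.08 to -0.25, adjusted p 0.0497). That call was marginal, because it was lost in 15 of 18 fits with 1 liver left out and reached an adjusted p of 0.116 without tumour-bearing WT replicate 6, the highest liver, where the log2 difference was -0.46. Stat3-deleted and control livers differed by -0.06 (SE 0.20, 95% interval -0.48 to 0.35, adjusted p 0.9).

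Mtf1, the zinc sensor upstream of the metallothioneins, did not pass in any comparison. Its level was 13.4, 15.2 and 21.99 CPM in control WT livers, 13.6, 17.5 and 18.7 CPM in tumour-bearing WT livers and 15.7, 18.8 and 27.4 CPM in Stat3-deleted livers, so that the 3 groups overlapped widely. The log2 difference of Mtf1 was 0.04 (SE 0.17, 95% interval -0.30 to 0.38, adjusted p 0.938) between tumour-bearing WT and control livers, where its sign turned to -0.14 with library totals. It was 0.21 (SE 0.16, adjusted p 0.523) between Stat3-deleted and tumour-bearing WT livers and 0.25 (SE 0.16, adjusted p 0.415) between Stat3-deleted and control livers. The 95% interval of the last difference was -0.09 to 0.59.

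**Figure D2:**
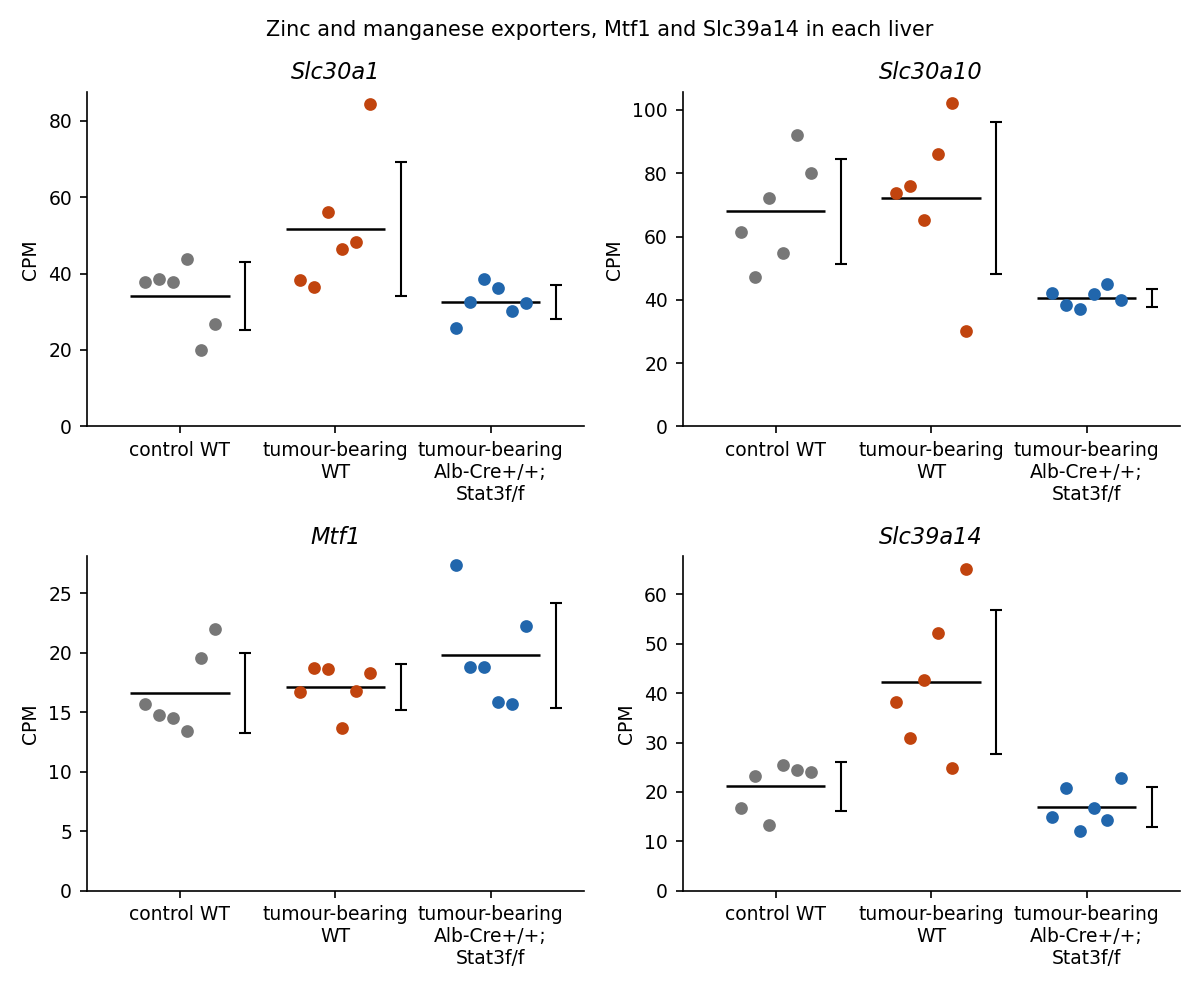
Level in CPM of Slc30a1, Slc30a10, Mtf1 and Slc39a14 in each liver, in replicate order, with a line at the group mean and a bar of 1 SD to either side. The Stat3-deleted livers are packed between 37.0 and 45.0 CPM for Slc30a10, and 5 of 6 tumour-bearing WT livers lie above all control livers for Slc39a14, up to 65.1 CPM.

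The median log2 difference of the 5 members was 0.60 for tumour-bearing WT against control livers, -0.83 for Stat3-deleted against tumour-bearing WT and 0.25 for Stat3-deleted against control livers, beside medians of 0.0038, -0.034 and -0.0087 over all tested genes. These comparisons share livers pairwise. The plot of fold changes sets the members beside the other zinc transporters.

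**Figure D3:**
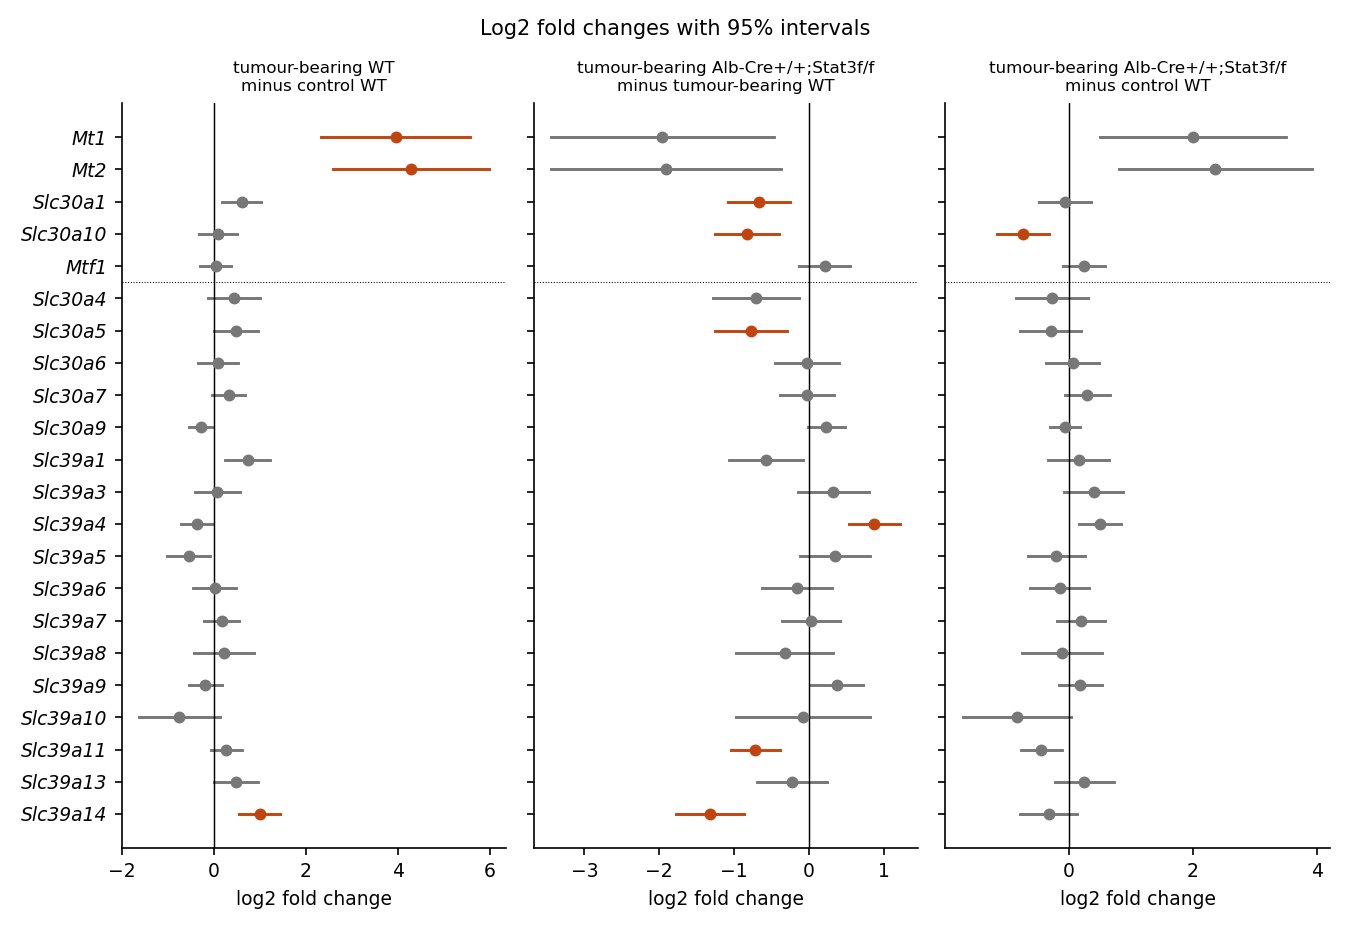
Log2 fold change with its 95% interval for the 5 members (above the dotted line) and the 17 tested other SLC30 and SLC39 transporters (below it) in the 3 comparisons, each panel with its own scale; orange marks an adjusted p under 0.05 and grey all others. Mt1 and Mt2 reach 3.96 and 4.27 in the left panel, where Slc39a14 is the only orange transporter, and the middle panel holds the exporters Slc30a10 and Slc30a1 at -0.83 and -0.66.

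Among the other metallothioneins, Mt3 and Mt4 had too few counts to test. Of 8 further SLC30 transporters 5 were tested. By edgeR, DESeq2 and limma voom 0 were called between tumour-bearing WT and control livers or between Stat3-deleted and control livers, and at an unadjusted p under 0.05 2 and 0 were. Slc30a5, which loads zinc into the early secretory pathway, was the 1 called lower in Stat3-deleted than in tumour-bearing WT livers (log2 change -0.78, SE 0.23, adjusted p 0.0475), a call lost in 13 of 18 fits with 1 liver left out.

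Of 14 SLC39 importers 12 were tested. Slc39a14 rose in tumour-bearing WT livers (log2 change 1.00, SE 0.22, adjusted p 0.013) and was lower in Stat3-deleted than in tumour-bearing WT livers (-1.32, SE 0.22, adjusted p 0.000476). Its level was 13.3, 23.5 and 25.5 CPM in control livers, 24.8, 40.5 and 65.1 CPM in tumour-bearing WT livers and 12.1, 15.8 and 22.8 CPM in Stat3-deleted livers. Only tumour-bearing WT replicate 5 (24.8 CPM) fell inside the control range, and the Stat3-deleted livers lay wholly below the tumour-bearing WT livers. Slc39a14 in Stat3-deleted livers differed from control by -0.33 (SE 0.22, adjusted p 0.421). In each number run alone the tumour difference was near that of all livers, at 1.06 (adjusted p 0.101) and 0.94 (adjusted p 0.241).

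Slc39a4, an importer best known from the intestine, was higher in Stat3-deleted than in tumour-bearing WT livers (log2 change 0.87, SE 0.17, adjusted p 0.00217), and Slc39a11 was lower (-0.72, SE 0.16, adjusted p 0.00723). Both calls held in 18 of 18 fits with 1 liver left out. With Slc39a14 these made 1 higher and 2 lower of 12 importers in that comparison, against 1 higher and 0 lower for tumour against control. In Stat3-deleted against control livers edgeR and DESeq2 called 0. By limma voom and at an unadjusted p under 0.05, 1 was higher and 1 lower there. Over all tested genes edgeR called 2.89% higher and 3.23% lower, 1.76% and 0.49%, and 2.19% and 2.66% in the 3 comparisons in this order.

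Of 5 other genes reported as MTF1 targets, 0 were called in the 3 comparisons by edgeR, DESeq2 or limma voom (2, 1 and 0 at an unadjusted p under 0.05). Their median log2 differences were -0.11, 0.11 and -0.02. With tumour the 5 values ran from -0.75 (Slc39a10) to 0.57 (Selenoh). The list was not split by the direction in which MTF1 acts on each gene. Of 7 manganese transporters other than Slc30a10, Slc39a14 was the only 1 called by edgeR, higher with tumour and lower in Stat3-deleted than in tumour-bearing WT livers. Against control livers limma voom called 1 of the 7 lower. Of 11 tested copper transporters and chaperones, the metalloreductase Steap4 rose with tumour (log2 change 1.71, SE 0.31, adjusted p 0.00247) and was lower in Stat3-deleted than in tumour-bearing WT livers (-1.82, SE 0.31, adjusted p 0.000594), as was its relative Steap2 (-1.10, SE 0.27, adjusted p 0.0138).

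Glucocorticoids induce metallothioneins, so a list of 12 glucocorticoid-responsive genes, which includes the receptor, was set beside them. Between tumour-bearing WT and control livers 0 of the 12 were called by edgeR, DESeq2 or limma voom (2 at an unadjusted p under 0.05), with a median log2 difference of 0.18. Between Stat3-deleted and tumour-bearing WT livers 4 were higher (Zbtb16, Hsd11b1, Tsc22d3 and Lpin1) and 1 was lower (the receptor gene Nr3c1) by edgeR, against 3 and 1 by DESeq2 and 7 and 1 by limma voom. Lpin1 and Nr3c1 each lost the call in 4 of 18 fits with 1 liver left out. Zbtb16, a transcriptional repressor, had a log2 change of 1.79 (SE 0.32, adjusted p 0.00109), and Hsd11b1, which regenerates active glucocorticoid, had 1.07 (SE 0.17, adjusted p 0.000241). Against control livers 4 were higher (Zbtb16, Lpin1, Fkbp5 and Hsd11b1) and Nr3c1 was lower (-0.76, SE 0.16, adjusted p 0.00914) by edgeR, against 3 and 1 by DESeq2 and 6 and 1 by limma voom. Fkbp5 lost the call in 8 and Hsd11b1 in 6 of 18 fits with 1 liver left out. The list's median log2 difference was 0.53 and 0.68 in these comparisons, beside medians of -0.034 and -0.0087 over all tested genes. Of all 11218 tested genes edgeR called 2.89% higher and 3.23% lower against tumour-bearing WT livers, and 2.19% and 2.66% against control livers. By limma voom 1097 and 1318 genes were called in either direction.

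Of 8 tested oxidant and heavy-metal stress genes, 0 were called with tumour by edgeR, DESeq2 or limma voom (3 at an unadjusted p under 0.05). Srxn1, which repairs oxidised peroxiredoxins, was higher in Stat3-deleted than in tumour-bearing WT livers (0.61, SE 0.17, adjusted p 0.0371, lost in 8 of 18 fits with 1 liver left out). Nfe2l2, the oxidant-sensing transcription factor NRF2, was lower in Stat3-deleted than in control livers (-0.84, SE 0.19, adjusted p 0.0161), as was Txnrd1 (-0.53, SE 0.14, adjusted p 0.0356, lost in 10 of 18 fits).

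Within groups, Mt1 and Mt2 tracked each other from liver to liver. Correlations of log2 CPM over the 6 livers of a group were computed for Mt1 with 6 genes in each of 3 groups, and p-values are from exact permutation of the 720 pairings, adjusted over these 18. Mt1 and Mt2 had a Pearson r of 0.987 in control (p 0.00278, adjusted 0.025; Spearman rho 0.943, p 0.0167, adjusted 0.075), 0.892 in tumour-bearing WT livers (p 0.0111, adjusted 0.05; rho 0.943, p 0.0167, adjusted 0.075) and 0.972 in Stat3-deleted livers (p 0.0167, adjusted 0.06; rho 0.714, p 0.136, adjusted 0.408). Without the 2 livers farthest from the median of Mt1, r was 0.983, 0.95 and 0.771.

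Slc39a14 tracked Mt1 in the tumour-bearing WT livers, where the order of the 6 livers was the same for both genes. By exact permutation r was 0.962 (p 0.00278, adjusted 0.025) and rho was 1 (p 0.00278, adjusted 0.05), and r was 0.862 without the 2 farthest livers. In control livers r was 0.0555 (adjusted exact p 0.971) and in Stat3-deleted livers 0.0977 (adjusted exact p 0.971); the difference between groups was not tested. Mtf1 ran opposite to Mt1 in Stat3-deleted livers, with r of -0.959 (exact p 0.00417, adjusted 0.025), rho of -0.943 (exact p 0.0167, adjusted 0.075) and r of -0.818 without the 2 farthest livers. The other 13 relations, including those of Mt1 with Slc30a1, Slc30a10 and Stat3, had adjusted exact p of 0.125 or more by Pearson's r. With library totals in place of TMM factors the adjusted exact p of the 3 relations under 0.05 (Mt2 in control, Slc39a14 in tumour-bearing WT and Mtf1 in Stat3-deleted livers) rose to between 0.05 and 0.0583.

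**Figure D4:**
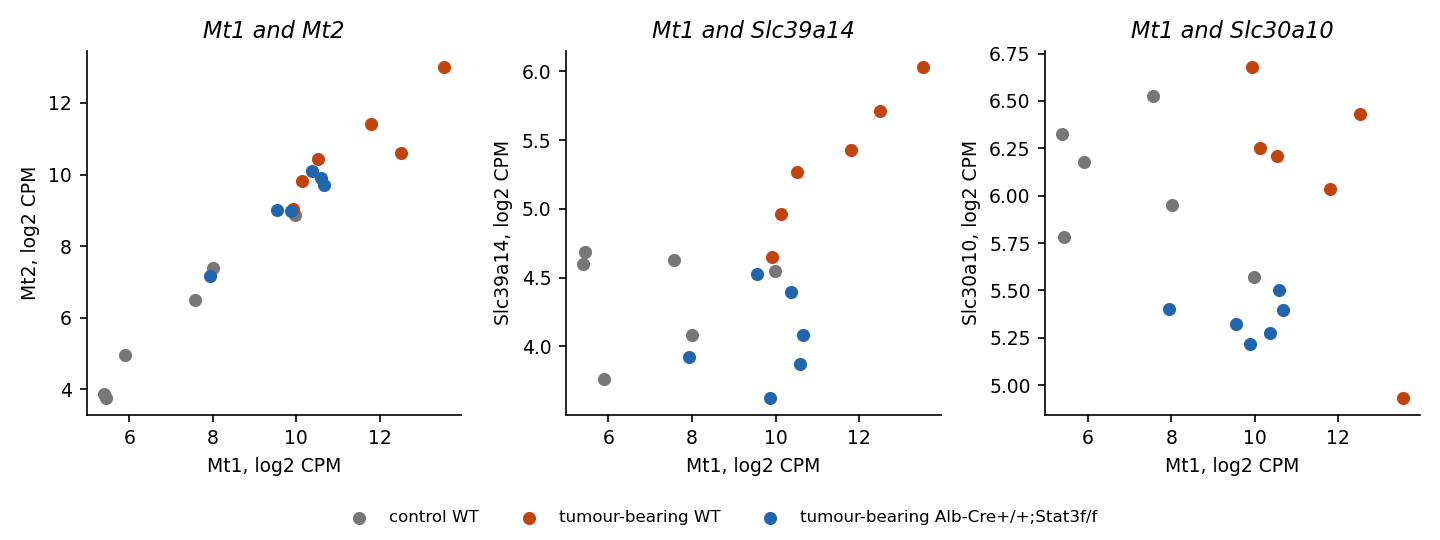
Log2 CPM of Mt2 (left), Slc39a14 (middle) and Slc30a10 (right) against log2 CPM of Mt1, with 1 point per liver and colour for the group. Mt2 rises with Mt1 in all groups, Slc39a14 rises with Mt1 among the tumour-bearing WT livers (r 0.962), and the tumour-bearing WT liver with the highest Mt1 has the lowest Slc30a10.

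The genes most like a member were sought among 6371 genes that averaged 10 CPM or more (predicted genes, Rik and Gm names and pseudogenes left out), by the correlation of log2 CPM over the 18 livers after the group means were taken off, given as a description. For Mt1 these were Mt2 (r 0.954), Rasgef1b (0.874), Sgk1 (0.835), Ddit4 (0.807) and Enpp1 (0.803). Sgk1 is the serum and glucocorticoid regulated kinase, and Ddit4 an inhibitor of mTORC1. For Slc30a10 they were Ccnd2 (0.914), Plin2 (0.906), Snrpd3 (0.898), Krtcap2 (0.897) and Nans (0.895). Of these 10 genes, Mt2 was called with tumour, and Rasgef1b was the 1 called in Stat3-deleted livers, where it was higher than in tumour-bearing WT (log2 change 1.30, SE 0.29, adjusted p 0.00697) and control livers (1.00, SE 0.28, adjusted p 0.0445, lost in 13 of 18 fits with 1 liver left out). Slc30a1 stood at rank 6259 of 6371 for likeness to Slc30a10 (r -0.771), and Slc30a10 at rank 6143 for likeness to Mt1 (r -0.521).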

How the data were processed

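Livers of 3 groups, 6 each, were profiled by QuantSeq 3′ FWD sequencing of TRIzol-preserved tissue, per the labels' protocols. Reads were aligned with STAR to mm10, per the submitters' processing notes. No source used here gives the STAR version, counting tool, annotation or use of strand, so antisense reads cannot be separated. The deposited table holds raw counts per gene symbol. Its 18 columns were matched to samples by the numbers in the labels (0 left over), and 27 symbols that had become date numbers (0.103 to 0.166% of counts) were left out.

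edgeR 4.0.16 (R 4.3.3) was run with TMM factors, filterByExpr and a quasi-likelihood fit of all 18 libraries (15 residual degrees of freedom, common biological coefficient of variation 0.281). Tests are two-sided, with Benjamini-Hochberg adjusted p over 11218 genes and a threshold of 0.05. CPM use TMM-scaled library sizes, and log2 CPM a prior count of 2. Livers above or below a mean were counted on log2 CPM. The fit was also run on simulated counts with planted changes. These were drawn gene by gene without number runs, so they check the code and not the results given here. Alternatives were DESeq2 1.42.0, limma 3.58.1 voom with quality weights, exact permutation (924 splits), other scaling and filters, blocks, the 2 groups alone, thinned counts and single livers left out.

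Named are the members, Stat3, Saa1, Slc39a14, every called gene of a function list (at most 6 by adjusted p) and the 5 genes most like Mt1 and like Slc30a10. The members and lists were chosen with earlier results of these data known. Same-numbered livers were not taken as pairs.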

Additional observations from a re-analysis of the deposited data

Results flagged for a closer look

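Each member was looked at in each group for a liver far from the rest, 15 combinations in all, of which chance alone marks about 1 in 20. In tumour-bearing WT livers Slc30a10 had its lowest liver, replicate 6 at 30.3 CPM, apart from the other 5 livers by 0.631 of the group's range on the log2 scale. The same liver had the highest Mt1, Mt2, Slc30a1 and Slc39a14 of all 18 and the smallest TMM factor (0.75). Without it the log2 change of Slc30a10 from tumour-bearing WT to Stat3-deleted livers was -0.98 (adjusted p 0.000304), against -0.83 with all livers. Mtf1 had its lowest tumour-bearing WT liver, replicate 4 at 13.6 CPM, apart by 0.640 of that group's range.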

How the results depend on the processing

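With single livers left out, genes called ran from 132 to 462 with tumour, 469 to 906 for Stat3-deleted against tumour-bearing WT and 258 to 783 for Stat3-deleted against control livers. In these fits Mt1 and Mt2 kept their tumour calls (3.27 to 5.11 and 3.43 to 5.31). Log2 differences ran from -0.035 to 0.24 for Slc30a10 and -0.032 to 0.13 for Mtf1 with tumour, from -0.74 to -0.46 for Slc30a1, -2.16 to -1.28 for Mt1, -2.12 to -1.07 for Mt2, -2.15 to -1.20 for their sum and 0.093 to 0.27 for Mtf1 against tumour-bearing WT, and against control from 0.13 to 0.34 for Mtf1, 1.76 to 3.16 for Mt1, 2.11 to 3.40 for Mt2, 1.88 to 3.25 for their sum, -0.18 to 0.0076 for Slc30a1 and -0.84 to -0.63 for Slc30a10.

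DESeq2 called 462 genes with tumour and 860 against control, the 2 groups alone 128 and 894, and voom 1097 against tumour-bearing WT and 1318 against control. The number run as a block called 126 genes, the lower run 38 and the higher run 50. In the lower run Mt1, Mt2 and their sum had 2.20, 2.89 and 2.47 and were not called, and in the higher run Slc30a10 had -0.059 and Mtf1 -0.18. Library totals gave -0.065 for Slc30a10 and -0.14 for Mtf1 with tumour.

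The Slc30a1 difference from tumour-bearing WT lost its call with RLE factors (-0.65, adjusted p 0.0547), library totals (-0.55, 0.0801), no filter (-0.65, 0.0546), a filter of 1 CPM in 6 libraries (-0.66, 0.0513), the 2 groups alone (-0.65, 0.0553), thinned counts (-0.65, 0.0666) and the replicate number as a block (-0.65, 0.0584). That block changed no other member's call. Same-numbered livers correlated at -0.126 to 0.309, over 0.1 in at most 2 of 6 pairs, and best with their own number in at most 1 of 6. Same-numbered WT livers also lie in the same number run, so these correlations cannot decide whether livers were handled as pairs. The 2 groups alone called the summed pair against tumour-bearing WT (-1.93, 0.0487). Against control, Mt2 passed with DESeq2 (2.37, 0.0457), the 2 groups alone (2.36, 0.0498) and voom (3.10, 0.006), as did Mt1 (2.62, 0.0107) and the sum (2.79, 0.00810) with voom. Exact permutation, unadjusted, gave Slc30a1 with tumour 0.58 (p 0.0281), Mt2 against tumour-bearing WT -1.57 (p 0.0433), and against control 2.78 for Mt1 (p 0.0173) and 3.25 for Mt2 (p 0.0108).

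Correlations that were not called changed sign with library totals for Mt1 with Slc30a10 in Stat3-deleted livers (-0.133) and with Stat3 in tumour-bearing WT livers (-0.152). Without the 2 farthest livers, Mt1 turned to -0.554 with Slc30a1, 0.426 with Slc30a10, 0.737 with Mtf1, -0.0360 with Slc39a14 and 0.197 with Stat3 in control, 0.490 with Mtf1 in tumour-bearing WT and -0.605 with Slc30a1 in Stat3-deleted livers. The cause of these changes was not tested.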

Other observations

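The share of Mt1 among the summed reads of Mt1 and Mt2 ran from 60.5 to 76.4% in control livers, 51.7 to 79.1% with tumour and 54.7 to 66.0% with Stat3 deleted. Mean shares were 68.8% ± 5.76 (SD, n = 6), 61.1% ± 9.86 and 61.6% ± 4.17. By exact permutation tests, chosen after the values were seen and adjusted over 3 comparisons, the mean share differed by -7.71 points with tumour (p 0.13, adjusted 0.195), by 0.443 points between Stat3-deleted and tumour-bearing WT livers (p 0.946, adjusted 0.946) and by -7.27 points between Stat3-deleted and control livers (p 0.0325, adjusted 0.0974). Tumour-bearing WT replicate 4, with 44445 reads of Mt1 and 11743 of Mt2, had the highest share.

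The correlation of Slc30a1 with Slc30a10 within groups, computed because both had been seen to run opposite over all livers, is given as a description. Over 6 livers each, in a family of 3 relations added after the values were seen, Pearson's r was -0.846 in control (exact p 0.0236, adjusted 0.0708; rho -0.943, adjusted 0.05), -0.8 in tumour-bearing WT (exact p 0.0889, adjusted 0.133; rho -0.486, adjusted 0.356) and -0.579 in Stat3-deleted livers (exact p 0.217, adjusted 0.217; rho -0.771, adjusted 0.154). Without the 2 livers farthest from the median of Slc30a1, r was -0.353, -0.152 and -0.336. None passed by Pearson's r, and the values rest on those livers.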
